A study of Mus musculus with 6 samples.

Results

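The machinery that releases synaptic vesicles was followed through 32 genes, taken by symbol from the 32285 genes of the count matrices, in neurons of the aged mouse hippocampus. The genes fall into 7 roles: the synapsins of the reserve pool (Syn1, Syn2, Syn3), proteins of the vesicle membrane (Syp, Sv2a, Sv2b, Sv2c), docking (Rab3a, Rab3c and the Rab3 effector Rph3a), the active zone scaffold (Bsn, Pclo, Rims1, Rims2, Rims3), priming (Unc13a, Unc13b, Unc13c) with its tomosyn inhibitors (Stxbp5, Stxbp5l), fusion (Snap25, Stx1a, Vamp1, Vamp2 and Nsf), and calcium sensing (Syt1, Syt2, Syt4, Syt7, Syt10) with the complexins (Cplx1, Cplx2). The sevoflurane group, 3 libraries, came from mice given the inhaled anaesthetic sevoflurane at 2% in 60% O2 for 6 h. The oxygen group, 3 libraries, came from mice kept in 60% O2 without the anaesthetic for 6 h. The gas flow was 1 L/min in both groups, and every mouse was 18 to 20 months old. The labels also name a sex, which sex-linked genes went against in 3 libraries, as described below. Strain and genotype are not given in the labels. The comparison asks which neuron types and which step of release differ after the anaesthetic. The labels do not say that the libraries came from separate animals, so a p-value here sets a difference against variation among libraries, which may be technical.

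A vesicle filled with transmitter is held in the reserve pool by synapsins, is carried to the presynaptic membrane with the help of Rab3, and is tethered there by the large scaffold proteins bassoon, piccolo and RIM. Munc13 proteins, encoded by the Unc13 genes, open syntaxin so that it can join SNAP-25 and synaptobrevin in the SNARE complex, and tomosyns compete for that complex and hold priming back. Synaptotagmin-1 binds calcium and triggers fusion, complexins clamp and assist it, and NSF takes the spent complexes apart. Volatile anaesthetics are known to depress transmitter release from nerve terminals, and nuclear RNA as measured here reports transcripts, not the proteins at the terminal.

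The 6 libraries held 56334621 to 72636984 UMIs (unique molecular identifiers, one per captured RNA molecule) and, after filtering, 8947 to 9735 nuclei per sevoflurane library and 7759 to 8826 per oxygen library. The neuron types were named from markers after clustering without the release genes: dentate granule-like (9913 nuclei), subicular or cortical excitatory-like (7300), CA1-like (5840), inhibitory-like (3086), CA3-like (2748) and CA2-like (331, at least 50 in each library). In the oxygen libraries dentate granule markers summed to 5471 to 5704 CPM (counts normalised to the library total) in dentate granule-like and 307 to 342 CPM in CA1-like nuclei, and CA1 markers to 8402 to 9536 CPM in CA1-like but also 5602 to 6411 CPM in inhibitory-like nuclei. Hilar mossy-like and Cajal-Retzius-like nuclei fell under 20 in a library and were not tested. In 3 libraries the sex-linked genes went against the labels: sevoflurane replicate 1, labelled male, had 1363 CPM of Xist and 0.364 CPM over 4 Y-linked genes, whereas both replicates 3, labelled female, had at most 0.805 CPM of Xist. All libraries but sevoflurane replicate 1 had at most 1.21 CPM of Xist and 341 to 373 CPM over the Y-linked genes. By these genes sex was not balanced between the groups, and it was not fitted. Different clusters made up most dentate granule-like nuclei in the groups, except in sevoflurane replicate 3. The sevoflurane libraries contributed 1449, 1543 and 668 nuclei to cluster 3 and the oxygen libraries 348, 191 and 276, while cluster 1 drew 638, 298 and 950 from sevoflurane and 681, 1743 and 1036 from oxygen libraries. An inhibitory cluster led by Ano1 and Zic4, with 167, 218 and 183 sevoflurane nuclei against 13, 15 and 17 oxygen nuclei by library, was kept out of the inhibitory-like neurons. Choroid plexus markers, RNA of another tissue, were lower in the sevoflurane libraries without overlap in all 6 neuron types, for example 28.8 to 34.3 CPM against 91.2 to 393 CPM in dentate granule-like nuclei. Library pairs shared 15 to 33 barcodes.

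After sevoflurane a minority of the release genes fell. Calls per type do not rank the types. A direct test of the difference, given below, set dentate granule-like neurons against other types. Against subicular or cortical excitatory-like, CA1-like and inhibitory-like neurons it called 0 of 32 members (0.201%, 0.826% and 0.197% of all genes). By edgeR calls within types, 6 of the 13 falls were in dentate granule-like neurons. There, 6 of the 32 members fell and none rose: the calcium sensor Syt1, the tomosyn Stxbp5l, the Munc13 gene Unc13a, the scaffold genes Pclo and Rims1 and the docking gene Rab3c (edgeR quasi-likelihood test, Benjamini-Hochberg adjusted p under 0.05 over all genes tested in the type). Of all 15984 genes tested in these neurons, 3.16% were called lower and 1.46% higher. In inhibitory-like neurons 3 of 32 fell (Rims1, Rab3c and Syt1), where 1.22% of all genes did. In CA1-like neurons 2 of 32 fell (Sv2b and Syt1), against 1.5% of all genes. Sv2b, a vesicle glycoprotein gene, was the single member to fall in CA3-like neurons (1.31% of all genes) and in subicular or cortical excitatory-like neurons (0.815% of all genes). CA2-like neurons had 1 member that rose, the synapsin gene Syn3, where 0.0716% of all genes were called higher, and 0 of 27 tested members that fell, where 0.25% of all genes were called lower. There, 7 members were lower and 3 higher at an unadjusted p under 0.05, and DESeq2 called 0. The 14 calls concerned 8 members, and 24 members were called in no type. A call here and below is that of edgeR in 1 of these 6 types, unless another tool or set of nuclei is named. Leaving out 1 library moved these counts: 2 members were called in dentate granule-like neurons without oxygen replicate 2 or 3, and 3 without sevoflurane replicate 2 or oxygen replicate 1. In CA1-like neurons the count was 5 without sevoflurane replicate 1 and 1 without oxygen replicate 1 or 2. In CA2-like neurons it was 2 without sevoflurane replicate 1, 0 without sevoflurane replicate 3 and 3 without oxygen replicate 1, and in subicular or cortical neurons 2 without sevoflurane replicate 1 and 0 without any of the oxygen replicates.

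DESeq2 called 25 pairs of member and type, 13 of the 14 and 12 more. By DESeq2, 6 members fell in dentate granule-like (3.94% of all genes), 5 in CA1-like (3.08%), 1 in CA3-like (2%), 5 in inhibitory-like (2.24%) and 7 in subicular or cortical excitatory-like neurons (2.45%), and 1 rose in CA1-like neurons, where 0.722% of all genes did. The 12 were Rims1, Stxbp5l and Syn2 lower and Syt10 higher in CA1-like neurons, Stxbp5l, Rph3a, Syt1, Pclo, Rims1 and Unc13a lower in subicular or cortical excitatory-like neurons, and Unc13a and Pclo lower in inhibitory-like neurons. Neither tool called 21 of the 32 members in any type.

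In each of the 14 edgeR calls, the sevoflurane libraries did not overlap the oxygen libraries. Counting every member, called or not, 11 of 32 were lower and 1 higher without overlap in dentate granule-like neurons. In subicular or cortical excitatory-like neurons 13 of 32 were lower and 0 higher. The counts were 6 and 2 of 32 in CA1-like, 5 and 5 of 27 in CA2-like, 7 and 1 of 32 in CA3-like and 6 and 1 of 32 in inhibitory-like neurons. Over all genes, 13% were lower and 11.7% higher without overlap in dentate granule-like neurons, 12% and 10.9% in CA1-like, 8.29% and 7.49% in CA2-like, 11.2% and 8.02% in CA3-like, 11.1% and 10.4% in subicular or cortical excitatory-like neurons, and 10.6% and 8.86% in inhibitory-like neurons. The median log2 fold change of the members, sevoflurane over oxygen, was -0.10 in dentate granule-like, -0.07 in CA1-like, -0.05 in CA2-like, -0.07 in CA3-like, -0.07 in inhibitory-like and -0.14 in subicular or cortical excitatory-like neurons, beside medians of 0.01 to 0.02 over all genes tested.

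**Figure D1:**
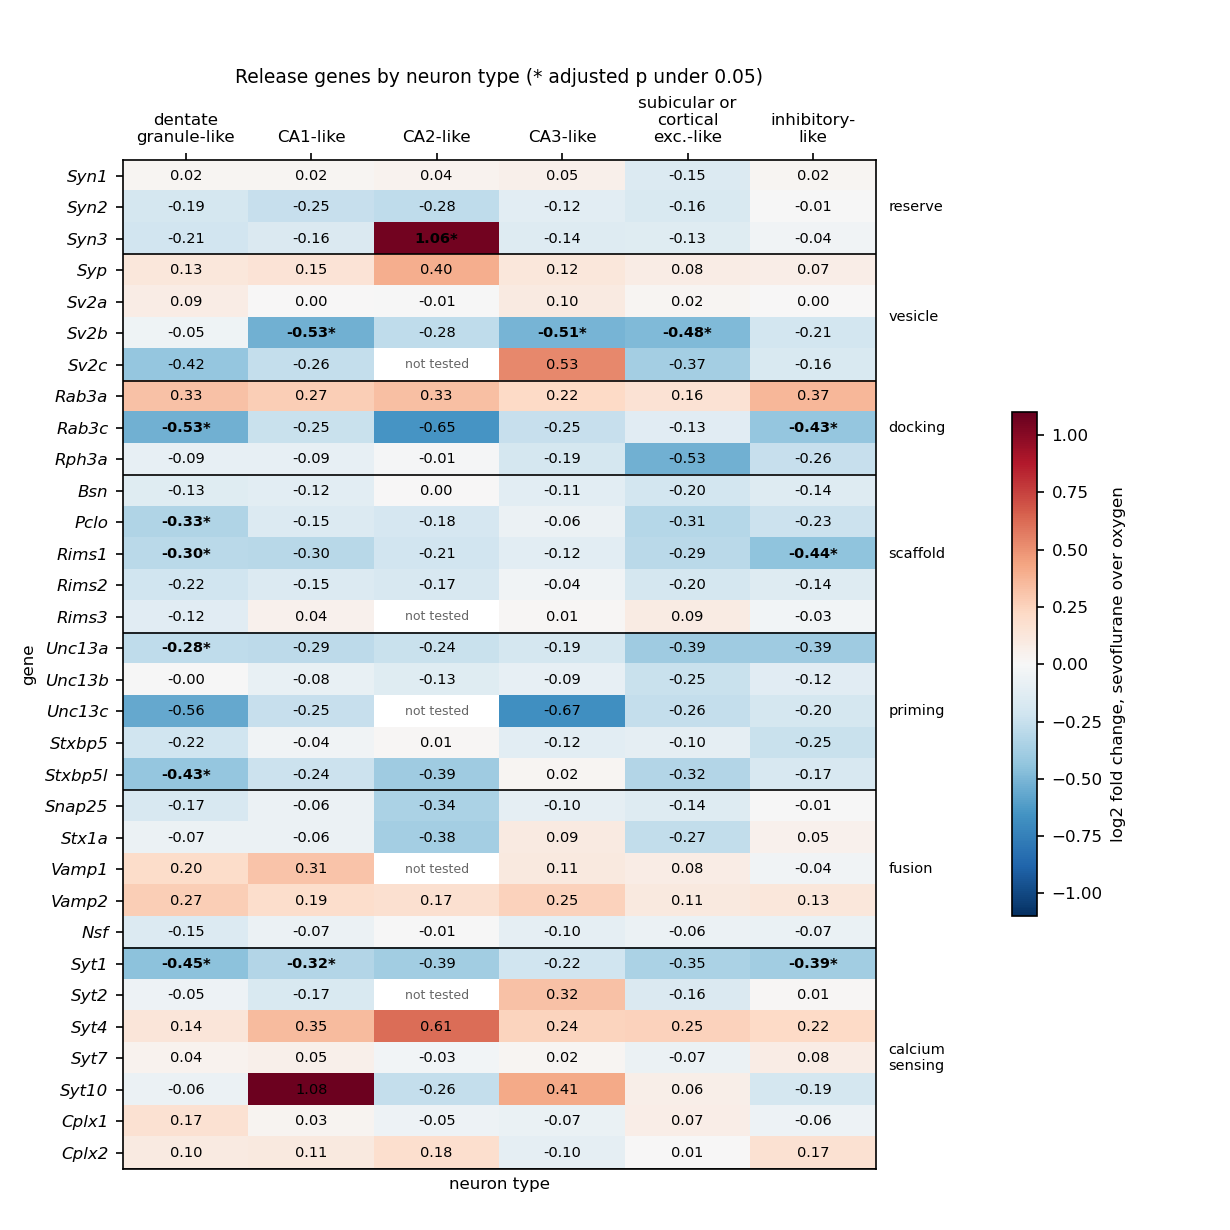
Log2 fold change (sevoflurane over oxygen) of the 32 release genes, in rows grouped by role, in 6 neuron types, in columns; blue is lower after sevoflurane, red is higher, and an asterisk marks an adjusted p under 0.05 (edgeR, 3 libraries a group). The 13 blue cells with an asterisk lie in the rows of Sv2b, Rab3c, Pclo, Rims1, Unc13a, Stxbp5l and Syt1, and the 1 red one is Syn3 in CA2-like neurons.

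By role, the scaffold and priming groups were the ones in which every member lay below 0 in dentate granule-like neurons. Of all genes tested there, 45.9% lay below 0. Unc13b lay at -0.00176, and Rims3 had 0.0274 UMIs per nucleus in the oxygen libraries against 0.0252 in microglia-like nuclei. The scaffold had 2 of 5 called and a median of -0.22, and priming 2 of 5 called and a median of -0.28. Docking had 1 of 3 called (median -0.09) and calcium sensing with the complexins 1 of 7 (median 0.04). None of the 3 synapsins (median -0.19), 4 vesicle membrane genes (0.02) or 5 fusion genes (-0.07) was called there by edgeR or by DESeq2, although 2 synapsins and 2 fusion genes were lower at an unadjusted p under 0.05 and 1 fusion gene was higher. In subicular or cortical excitatory-like neurons the priming median was -0.26 and the scaffold median -0.20, and 4 of 5 members of each had no overlap of libraries. There edgeR called 0 of these 10 members, while DESeq2 called 2 of the scaffold (Pclo and Rims1) and 2 of priming (Stxbp5l and Unc13a). Role was not tested apart from gene span, which is described below. In dentate granule-like neurons all 15 members over 100 kb lay below 0 (median -0.22), against 1 of the 7 under 30 kb. With an offset for span the scaffold calls of Pclo and Rims1 were lost there, and the priming calls of Stxbp5l and Unc13a were kept.

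Start-site sequences are given for 3 members that contrast in their response: Unc13a, the called member with the shortest gene, Syt1, called in 3 neuron types, and Syn1, called in none. Promoter windows of 300 bases, 250 before and 50 after the annotated start, were found in RefSeq (GRCm38.p6) for 26 of the 32 members. They are written 5′ to 3′ on the gene's strand at chr8:71671708-71672007 (Unc13a, minus strand), chrX:20920869-20921168 (Syn1, minus strand) and chr10:109010926-109011225 (Syt1, minus strand, the outer of its windows). Capitals mark matches, on either strand, to the motifs listed after the sequences.
Unc13a: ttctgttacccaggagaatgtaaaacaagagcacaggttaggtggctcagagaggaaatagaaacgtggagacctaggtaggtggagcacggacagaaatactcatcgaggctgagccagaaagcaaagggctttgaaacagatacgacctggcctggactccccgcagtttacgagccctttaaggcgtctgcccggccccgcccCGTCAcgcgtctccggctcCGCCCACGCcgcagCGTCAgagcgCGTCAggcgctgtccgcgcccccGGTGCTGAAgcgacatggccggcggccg
Syn1: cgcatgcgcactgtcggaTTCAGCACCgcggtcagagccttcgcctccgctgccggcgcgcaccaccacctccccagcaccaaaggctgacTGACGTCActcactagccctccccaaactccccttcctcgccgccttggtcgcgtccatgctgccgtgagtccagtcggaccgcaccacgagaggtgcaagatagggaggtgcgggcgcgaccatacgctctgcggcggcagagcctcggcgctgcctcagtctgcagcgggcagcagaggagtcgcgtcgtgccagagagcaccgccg
Syt1: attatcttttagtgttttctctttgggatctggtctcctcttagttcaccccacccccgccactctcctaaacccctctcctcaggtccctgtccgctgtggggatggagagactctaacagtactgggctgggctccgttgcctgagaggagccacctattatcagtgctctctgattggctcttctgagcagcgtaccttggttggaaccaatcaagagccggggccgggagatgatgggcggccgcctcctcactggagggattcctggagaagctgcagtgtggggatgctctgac
The full cyclic AMP response element TGACGTCA was present in 1 of the 26 members (Syn1) and in 1.79% of 32851 promoters, and its core TGACG, which lies within it, in 7 of 26 and in 20.8%. The Egr1 motif GCGTGGGCG was found in 1 member (Unc13a) and in 0.612% of promoters. The first arm of the REST element, TTCAGCACC, stood in 2 members (Syn1 and Unc13a) and in 0.371% of promoters, the NRF1 motif in 2 (Bsn and Stxbp5) and in 0.971%, and TATAAA in 1 (Sv2b) and in 13.6%. The Syt1 window held none of these letters. A member was counted where any of its windows matched, and some members had several windows, while the percentages count single windows. The member counts and the percentages are therefore not on the same scale. A match describes the sequence and does not show that a factor binds it.

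Syn3, one of the synapsins that cluster vesicles in the reserve pool, was the member that rose. In CA2-like neurons it had 91.2, 122 and 127 CPM in the sevoflurane libraries against 62.5, 49.1 and 52.4 CPM in the oxygen libraries (CPM on TMM-normalised library sizes, here and below unless stated otherwise). These values rested on 65, 116 and 111 UMIs against 52, 43 and 45. The lowest sevoflurane library lay above the highest oxygen library, and the log2 fold change was 1.06 (SE 0.173, edgeR adjusted p = 0.00578). Without sevoflurane replicate 3 it was 0.97 (adjusted p = 0.0977), and DESeq2 gave it no adjusted p. Dentate granule markers were higher too in these nuclei, 789 to 885 CPM against 765 to 783 CPM (2 of 9 higher without overlap, 0 lower). CA3 markers were lower, 2095 to 2534 CPM against 2544 to 2804 CPM (2 of 9 lower without overlap, 0 higher). The part of these markers in the result was not tested. Timp3, which lies in Syn3 on the opposite strand, averaged 15.8 CPM in the sevoflurane and 15.4 CPM in the oxygen libraries. In the other types the log2 fold change of Syn3 lay between -0.21 and -0.04. Syn2 was below 0 in 6 of 6 types (-0.28 to -0.01), without overlap in 4 of them, and was called in none by edgeR (smallest adjusted p 0.0941) and in CA1-like neurons by DESeq2 (adjusted p = 0.0338). Syn1 ranged from -0.15 to 0.05.

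Sv2b, which encodes a transporter-like glycoprotein of the vesicle membrane, fell in 3 excitatory types. In CA1-like neurons it had 331, 298 and 296 CPM in the sevoflurane libraries against 457, 449 and 425 CPM in the oxygen libraries, a log2 fold change of -0.53 (SE 0.069, edgeR adjusted p = 0.00518). In CA3-like neurons the values were 455, 439 and 417 CPM against 675, 617 and 580 CPM (log2 fold change -0.51, SE 0.0733, adjusted p = 0.0055). Sv2b thus stood at 69.4% of its oxygen level in CA1-like and 70.0% in CA3-like neurons, and both calls held when any 1 library was left out. In subicular or cortical excitatory-like neurons it had 318, 360 and 361 CPM against 508, 471 and 471 CPM (log2 fold change -0.48, SE 0.0774, adjusted p = 0.03). Each sevoflurane library was below each oxygen library, but this call was lost without any of the oxygen libraries (adjusted p 0.0944, 0.114 and 0.108 without replicates 1, 2 and 3). CA2-like neurons gave -0.28 with overlapping libraries (adjusted p = 0.377). Dentate granule-like neurons, in which Sv2b was lowest, gave -0.05 and inhibitory-like neurons -0.21, both with overlap. In both types Sv2b lay under 2 times the higher glial level per nucleus, as given below. Own-type marker sums were lower too in 2 of these types. CA3 markers summed to 3529 to 3672 CPM in the sevoflurane against 3896 to 4023 CPM in the oxygen libraries in CA3-like neurons. Of these markers, 1 of 9 was lower without overlap and 0 higher. Subicular and cortical markers summed to 4789 to 4899 against 5226 to 5332 CPM in their own type (2 of 17 lower without overlap, 1 higher). The part of these markers in the result was not tested. In CA1-like neurons CA1 markers overlapped between the groups, but sums of some other marker lists were lower in the sevoflurane libraries there. Subicular and cortical markers were at 1184 to 1229 against 1396 to 1551 CPM (4 of 17 lower without overlap, 1 higher). Pvalb subtype markers were at 343 to 364 against 413 to 489 CPM (1 of 8 lower, 0 higher). Oligodendrocyte precursor markers were at 639 to 699 against 770.5 to 846 CPM (1 of 8 lower, 0 higher). The part of these markers in the CA1 calls of Sv2b and Syt1 was not tested.

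The other vesicle membrane genes were called in none of the 6 types by either tool. Syp, encoding synaptophysin, lay above 0 in 6 of 6 types (0.07 to 0.40) and without overlap in 3, with a smallest adjusted p of 0.279. Sv2a, the binding partner of the antiepileptic levetiracetam, stayed between -0.01 and 0.10. Sv2c ranged from -0.42 to 0.53 and was not tested in CA2-like neurons. It fell in 1 subicular or cortical cluster, marked by Npsr1 and Tshz2, with overlapping values of 43.9, 68.6 and 51.7 CPM in the sevoflurane against 94.6, 88.0 and 67.0 CPM in the oxygen libraries (log2 fold change -0.66, edgeR adjusted p = 0.0268). Over all neurons summed DESeq2 called it too (-0.35, adjusted p = 0.0486, where 5.49% of all genes were lower).

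Among the docking genes, Rab3c fell, and its paralog Rab3a was not called. Rab3c, a vesicle GTPase, had 73.9, 71.7 and 55.7 CPM in the sevoflurane libraries of dentate granule-like neurons against 97.6, 90.4 and 102 CPM in the oxygen libraries (log2 fold change -0.53, SE 0.106, edgeR adjusted p = 0.024). In inhibitory-like neurons, where its level was highest, it had 444, 436.5 and 420 CPM against 565, 611 and 571 CPM (log2 fold change -0.43, SE 0.0712, adjusted p = 0.00704). Both comparisons separated the groups completely. Dentate Rab3c was low, at 0.785 UMIs per nucleus in the oxygen libraries, against 0.281 in oligodendrocyte-like and 0.268 in microglia-like nuclei. The part of free RNA in this level was not tested. The dentate call was lost without oxygen replicate 1, 2 or 3 (adjusted p 0.0862, 0.063 and 0.0918), whereas the inhibitory call held without any 1 library. In the 3 other excitatory types besides CA2-like neurons Rab3c lay at -0.25 to -0.13, and in CA2-like neurons at -0.65 (adjusted p = 0.0876). Rab3a lay above 0 in all 6 types (0.16 to 0.37, smallest adjusted p 0.249), with overlapping libraries. It spans 4.0 kb, and the median of all genes under 10 kb was 0.08 to 0.15 in these types. Per nucleus Rab3a lay under 2 times the higher glial level in all 6 types, as given below. Rph3a, encoding rabphilin, was below 0 in 6 of 6 types, and its largest fold change, -0.53 in subicular or cortical excitatory-like neurons, had 60.5, 67.0 and 73.4 CPM in the sevoflurane against 109, 83.3 and 98.7 CPM in the oxygen libraries (adjusted p = 0.0527 by edgeR and 0.00217 by DESeq2).

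Of the scaffold genes, Pclo and Rims1 fell. Pclo, which encodes piccolo, one of the largest active zone proteins, had 385, 372 and 385 CPM in dentate granule-like nuclei of the sevoflurane libraries against 461, 492 and 481 CPM in those of the oxygen libraries (log2 fold change -0.33, SE 0.059, edgeR adjusted p = 0.0143). It was lower without overlap in 6 of 6 neuron types, by log2 fold changes down to -0.06 in CA3-like neurons, and among the 6 types edgeR called it in dentate granule-like neurons. DESeq2 called Pclo also in inhibitory-like neurons (adjusted p = 0.0246) and in subicular or cortical ones (0.00654). Rims1, encoding the RIM protein that links calcium channels to docked vesicles, had 1355, 1267 and 1442 CPM against 1598, 1771 and 1632 CPM in the same neurons (log2 fold change -0.30, SE 0.0674, adjusted p = 0.0336). In inhibitory-like neurons Rims1 had 1241.5, 1293 and 1335 CPM against 1776.5, 1786 and 1691 CPM (log2 fold change -0.44, SE 0.068, adjusted p = 0.0042), and this call held when any 1 library was left out. The dentate Rims1 call was lost without any library except sevoflurane replicate 3 (adjusted p 0.0597 to 0.132), and the Pclo call without sevoflurane replicate 2 (0.0512) or oxygen replicate 2 or 3 (0.0692 and 0.0621). Rims1 missed the threshold in CA1-like neurons, where its fold change was equally large (-0.30, adjusted p = 0.0515 by edgeR and 0.00545 by DESeq2). Bsn (-0.20 to 0.00), Rims2 (-0.22 to -0.04) and Rims3 (-0.12 to 0.09) were called in no type. Beside the calls in inhibitory-like neurons, the inhibitory markers themselves were lower, 11470 to 12840 CPM against 13750 to 15930 CPM. Of these markers, 4 of 10 were lower without overlap and 1 higher. Pvalb subtype markers were lower too, 2287 to 2836 against 3180 to 3492 CPM (3 of 8 lower without overlap, 0 higher). Lamp5 subtype markers were at 646 to 730 against 871 to 963 CPM (2 of 7 lower, 0 higher). The part of these markers in the result was not tested.

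In the priming group the tomosyn gene Stxbp5l had the smallest adjusted p of any member in dentate granule-like neurons. It had 535, 523.5 and 548 CPM in the sevoflurane libraries against 722, 728 and 712 CPM in the oxygen libraries, that is 536 ± 12.4 against 721 ± 7.98 CPM (mean ± SD, n = 3 each), a log2 fold change of -0.43 (SE 0.0559, edgeR adjusted p = 0.00315). The call held without any 1 library. Unc13a, whose product is the main vesicle priming factor of excitatory synapses, had 125, 115 and 121 CPM against 146, 147 and 145 CPM (log2 fold change -0.28, SE 0.0619, adjusted p = 0.0309). Without sevoflurane replicate 2 or oxygen replicate 1, 2 or 3 the adjusted p of Unc13a was 0.106, 0.094, 0.118 and 0.0994. A brake on priming and a priming factor therefore fell in the same neurons. Unc13a was below 0 in 6 of 6 types, with -0.39 both in inhibitory-like neurons (adjusted p = 0.0749) and in subicular or cortical ones (0.0903). Stxbp5l was lower without overlap in 4 of 6 types, with -0.39 in CA2-like neurons (adjusted p = 0.0949). CA3-like neurons were the exception, with overlapping values of 825, 718 and 762 CPM against 770, 763 and 745 CPM (0.02). Stxbp5, the other tomosyn, ranged from -0.25 to 0.01 (smallest adjusted p 0.0954), Unc13b from -0.25 to -0.00 and Unc13c, best known from cerebellar granule cells, from -0.67 to -0.20. None of these 3 was called.

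The fusion genes gave 0 calls in every type by edgeR, and DESeq2 called 0 too, with 1 member lower at an unadjusted p under 0.05 in CA2-like neurons, 1 lower in subicular or cortical neurons, 2 lower and 1 higher in dentate granule-like neurons and 1 higher in CA1-like neurons. Snap25 ranged from -0.34 in CA2-like to -0.01 in inhibitory-like neurons (smallest adjusted p 0.13), Stx1a, encoding syntaxin-1A, from -0.38 to 0.09, and Nsf from -0.15 to -0.01. Vamp2, encoding the vesicle SNARE synaptobrevin-2, lay above 0 in 6 of 6 types (0.11 to 0.27, smallest adjusted p 0.177), and Vamp1 in 4 of 5 (-0.04 to 0.31). Per nucleus both lay under 2 times the higher glial level in 5 of 6 types, as given below. Vamp2 spans 3.9 kb, and the median of all genes under 10 kb was 0.08 to 0.15 in the 6 types. The part of free RNA was not tested.

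Syt1, encoding the calcium sensor of fast release, fell in 3 types and was lower without overlap in all 6. In dentate granule-like neurons it had 2340, 2466 and 2463.5 CPM in the sevoflurane libraries against 3191, 3540.5 and 3218 CPM in the oxygen libraries, a log2 fold change of -0.45 (SE 0.0601, edgeR adjusted p = 0.00335) that left it at 73.1% of the oxygen level. CA1-like neurons had 2945, 2823 and 2848 CPM against 3622, 3599.5 and 3546.5 CPM (-0.32, SE 0.0503, adjusted p = 0.0111). Inhibitory-like neurons had 3028, 3202 and 3292 CPM against 4121, 4456 and 3864 CPM (-0.39, SE 0.073, adjusted p = 0.0142). In the 3 types without a call the libraries did not overlap either: CA2-like (-0.39, adjusted p = 0.0747), CA3-like (-0.22, 0.0977) and subicular or cortical excitatory-like neurons (-0.35, 0.0638). The dentate call held without any 1 library, the CA1 call was lost without oxygen replicate 1 (0.0691) or 2 (0.0678), and the inhibitory call without sevoflurane replicate 1 (0.0557) or oxygen replicate 1 (0.0523) or 2 (0.0718).

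The other calcium sensors were not called by edgeR in the 6 types. Syt4, a synaptotagmin that binds little calcium, lay above 0 in 6 of 6 types (0.14 to 0.61, smallest adjusted p 0.14). Syt7, the slow sensor of asynchronous release and facilitation, lay between -0.07 and 0.08. Syt10 reached 1.08 in CA1-like neurons at low and overlapping levels of 6.34, 8.24 and 12.8 CPM against 6.43, 3.14 and 3.67 CPM (adjusted p = 0.144 by edgeR and 0.0267 by DESeq2). Syt2 (-0.17 to 0.32), Cplx1 (-0.07 to 0.17) and Cplx2 (-0.10 to 0.18) were called in no type by either tool.

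**Figure D2:**
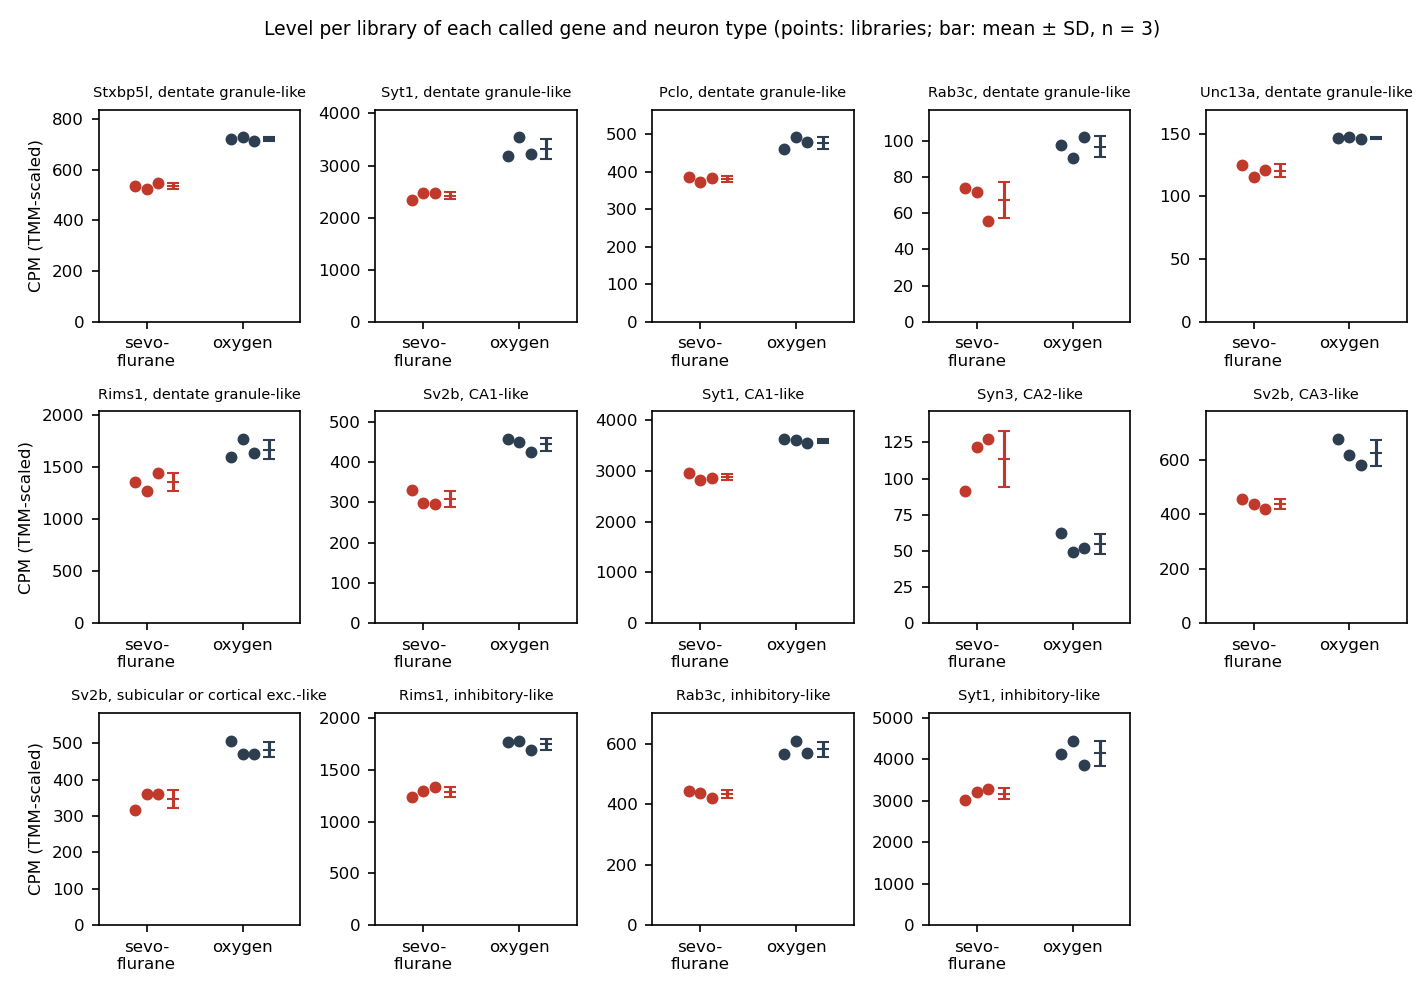
CPM on TMM-normalised library sizes (y axes, each starting at 0) in the sevoflurane libraries (red, left) and the oxygen libraries (dark blue, right) for the 14 pairs of a release gene and a neuron type that were called; points are libraries, bars mean ± SD (n = 3). Sevoflurane lies below oxygen without overlap in 13 panels and above it for Syn3 in CA2-like neurons.

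Summed over all 6 neuron types, 5 of 32 members fell: Sv2b (-0.53, edgeR adjusted p = 0.0078), Syt1 (-0.36, 0.013), Stxbp5l (-0.31, 0.0168), Pclo (-0.26, 0.0279) and Rims1 (-0.26, 0.0314), where 2.52% of all genes were called lower. This sum also depends on the share of each type. Sv2b is low in dentate granule-like nuclei, and these numbered 2117, 1862 and 1633 in the sevoflurane libraries against 1030, 1947 and 1324 in the oxygen libraries.

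Within the dentate granule-like neurons the 6 members were followed in each of the clusters that the groups fill differently. In cluster 1, 5 of the 32 members fell (2.02% of all genes): Syt1 (-0.40, edgeR adjusted p = 0.00257), Stxbp5l (-0.30, 0.0171), Rab3c (-0.60, 0.0241), Pclo (-0.26, 0.0399) and Unc13a (-0.25, 0.0464). Rims1 did not pass there (-0.17, adjusted p = 0.135). In cluster 3, 0 of 32 were called (0.331% of all genes were called lower), with 4 lower at an unadjusted p under 0.05, and the same 6 members lay at -0.30 (Syt1), -0.30 (Stxbp5l), -0.22 (Rab3c), -0.21 (Unc13a), -0.19 (Pclo) and -0.10 (Rims1). The fold change of Rims1 in the whole type, -0.30, was thus over 1.5 times that in either cluster. Those of Stxbp5l (-0.43), Syt1 (-0.45), Pclo (-0.33) and Unc13a (-0.28) also lay further below 0 than in either cluster. That of Rab3c (-0.53) lay between those of the clusters. The part of the unequal filling of the clusters in the whole-type values was not tested. Several marker lists of other types were lower in the sevoflurane libraries of dentate granule-like nuclei. Subicular and cortical markers were at 782 to 792 CPM against 1062 to 1096 CPM (5 of 17 lower without overlap, 0 higher). CA3 markers were at 661 to 774 against 812 to 846 CPM (3 of 9 lower, 2 higher). Astrocyte markers were at 1115 to 1168 against 1228 to 1329 CPM (2 of 9 lower, 0 higher). CA2 markers went the other way, at 207 to 233 against 156 to 191 CPM (3 of 8 higher, 1 lower). Dentate markers were at 5263 to 5392 against 5471 to 5704 CPM (3 of 9 lower, 1 higher). The part of these markers in the result was not tested.

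Smaller groups of neurons were compared in the same way. Syt1, Rims1, Pclo and Sv2b lay below 0 in 15 of 15 excitatory clusters with enough nuclei, and Stxbp5l, Unc13a and Rab3c in 14 of 15. Of all genes tested, 46.3% to 50.7% lay below 0 in these clusters. These members except Unc13a span over 100 kb, and long genes as a class were lower, as described below. The share of all genes is therefore not that of genes of like span. The clusters include dentate granule-like ones, and in that type the level of Sv2b is read as background, as given below. In the inhibitory subtypes Sv2b lay below 0 in 2 of 4 (-0.72 to 0.19) and the other 6 members in 4 of 4. These members were chosen because they were called lower in a neuron type, and the clusters and subtypes share its nuclei or libraries. The counts are therefore not independent of those calls. In the subicular or cortical cluster marked by Npsr1 and Tshz2, 7 of 32 members fell (2.32% of all genes), led by Rab3c (-0.73, edgeR adjusted p = 0.00307), although in the whole type Rab3c gave -0.13. In the cluster marked by Cdh18 and Foxp2, 6 of 31 fell (1.49% of all genes), led by Stxbp5l (-0.57, adjusted p = 0.00572), and they included Rph3a (-0.59). Among inhibitory subtypes the calls came from the Lamp5 type, where Rims1 (-0.68, adjusted p = 0.00067), Rab3c (-0.48, 0.0206) and Syt1 (-0.53, 0.0275) fell, 3 of 28 members against 1.31% of all genes. Sst, Pvalb and Cck or Vip types had 0 calls, with 0.653%, 0.0748% and 0.523% of all genes called lower and 6, 4 and 7 members lower at an unadjusted p under 0.05. Whether the Lamp5 type differs from those 3 was not tested.

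In glia, 0 members were called in astrocyte-like, oligodendrocyte-like and microglia-like nuclei (edgeR), where 2.17%, 0.556% and 0.459% of all genes were called in either direction. At an unadjusted p under 0.05, 5, 3 and 0 members passed there. In oligodendrocyte precursor-like nuclei Unc13c fell (391.7, 363 and 336 CPM in the sevoflurane against 525, 570 and 575 CPM in the oxygen libraries, log2 fold change -0.61, adjusted p = 0.00343), 1 of 28 members against 1.06% of all genes.

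Whether the change of a member differed between neuron types was tested within libraries, as the difference of log2 CPM between dentate granule-like neurons and each of 5 other types (limma). Against CA3-like neurons, 4 of 32 members differed, where 0.934% of all genes did. Stxbp5l was lower in the dentate by a further -0.44 (SE 0.0635, limma adjusted p = 0.00136), Pclo by -0.26 (SE 0.0603, adjusted p = 0.0444) and Syt1 by -0.23 (SE 0.0542, adjusted p = 0.0475). Sv2b, called in CA3-like neurons, went the other way with a difference of 0.45 (SE 0.0933, adjusted p = 0.0305). The dentate level of Sv2b, 0.269 UMIs per nucleus in the oxygen libraries, did not exceed that of microglia-like nuclei (0.273), at median depths of 6905 to 7882 and 1983 to 2178 UMIs per nucleus, and is read as background.

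The Stxbp5l difference held without any 1 library. Syt1 lost its call without any of the 6 (adjusted p 0.0637 to 0.222), Pclo without any but sevoflurane replicate 1 (0.0749 to 0.181), and Sv2b without sevoflurane replicate 2 or any oxygen library (0.0899 to 0.123). Against CA2-like neurons 1 of 27 members differed (0.168% of all genes), Syn3, with -1.23 (SE 0.154, limma adjusted p = 7.5e-05) and with every library left out in turn. Against CA1-like, subicular or cortical excitatory-like and inhibitory-like neurons 0 of 32 members differed by limma, where 0.826%, 0.201% and 0.197% of all genes did, and 7, 5 and 4 members passed at an unadjusted p under 0.05. The calls of Rab3c in dentate granule-like but not in subicular or cortical excitatory-like neurons therefore rest on a difference of -0.39 (SE 0.0811) that missed the threshold (adjusted p = 0.0899). For Sv2b the difference between dentate granule-like and CA1-like neurons was 0.47 (SE 0.118, adjusted p = 0.152).

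**Figure D3:**
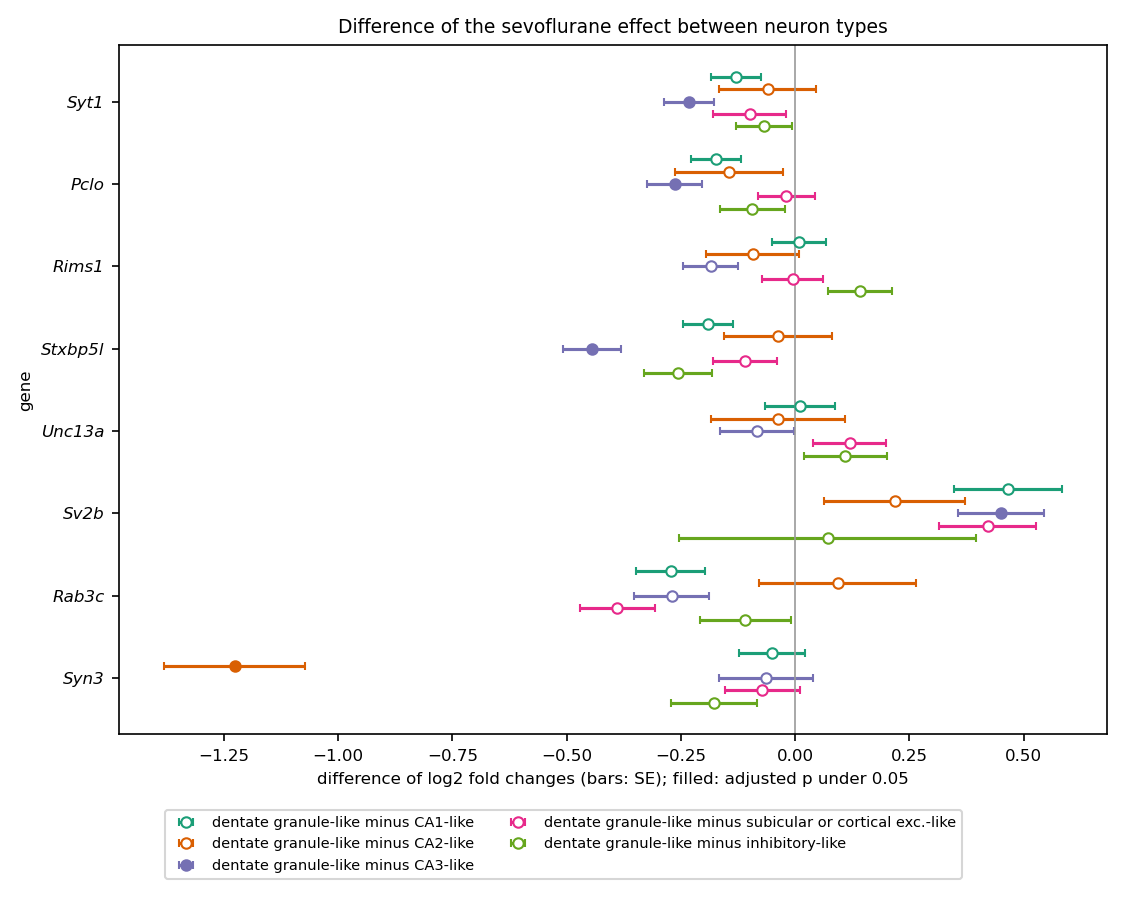
Difference of the log2 fold change (sevoflurane over oxygen) of 8 release genes, in rows, between dentate granule-like neurons and each of 5 other neuron types, by colour; points are limma estimates, bars SE, and filled points have an adjusted p under 0.05. The filled points are Syt1, Pclo, Stxbp5l and Sv2b against CA3-like neurons and Syn3 against CA2-like neurons.

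The members that fell are long genes, and long genes as a class were lower after sevoflurane in every neuron type. By span, the distance from gene start to end with introns, 15 members exceed 100 kb, and 13 of the 14 calls were among them. Syt1 spans 513 kb of chromosome 10 (108497650 to 109010982), Rims1 520 kb of chromosome 1 (22286251 to 22805994), Pclo 349 kb of chromosome 5 (14514918 to 14863459), Stxbp5l 270 kb of chromosome 16 (37114942 to 37384962), Rab3c 227 kb of chromosome 13 (110054187 to 110280996), Sv2b 194 kb of chromosome 7 (75114894 to 75309262) and Syn3 444 kb of chromosome 10 (86055125 to 86498896), all on mm10. Unc13a, with 47.3 kb of chromosome 8 (71624417 to 71671757), is the exception. In dentate granule-like neurons all 15 long members lay below 0 and 5 were called lower, whereas of the 7 members under 30 kb, 1 lay below 0. Over all genes there, the median log2 fold change was -0.23 for spans over 300 kb and 0.11 for spans under 10 kb, and 26% and 0.315% were called lower. For spans of 100 to 300 kb it was -0.11, with 11.4% called lower. The class over 300 kb had medians of -0.19 to -0.14 in the 5 other neuron types and of -0.18 in oligodendrocyte-like and -0.21 in microglia-like nuclei. Across members, Spearman's rho of fold change on span was -0.83 in dentate granule-like neurons, -0.80 in CA1-like and -0.49 to -0.73 in the 4 other types (27 to 32 genes, which are not independent replicates).

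An offset for each gene and library, fitted on span over all genes, kept 6 of the 14 calls. These were Stxbp5l (-0.27, edgeR adjusted p = 0.0244), Syt1 (-0.23, 0.0424) and Unc13a (-0.28, 0.0363) in dentate granule-like neurons, Sv2b in CA1-like (-0.42, 0.0174) and CA3-like neurons (-0.39, 0.025), and Syn3 in CA2-like neurons (1.195, 0.00623). The calls of Pclo (-0.14, 0.234), Rab3c (-0.38, 0.163) and Rims1 (-0.08, 0.558) in dentate granule-like neurons were lost, as were Syt1 in CA1-like neurons (-0.15, 0.152), Sv2b in subicular or cortical excitatory-like neurons (-0.36, 0.0558) and all 3 in inhibitory-like neurons: Rims1 (-0.25, 0.0869), Rab3c (-0.30, 0.08) and Syt1 (-0.19, 0.238). Their direction stayed below 0. Sv2b lay well beyond the median of its own span class in all 3 types in which it fell (-0.53, -0.51 and -0.48, beside class medians of -0.09 to -0.11). Over all genes, the share of calls that were higher was 31.7% in dentate granule-like neurons and 47.5% with the offset.

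**Figure D4:**
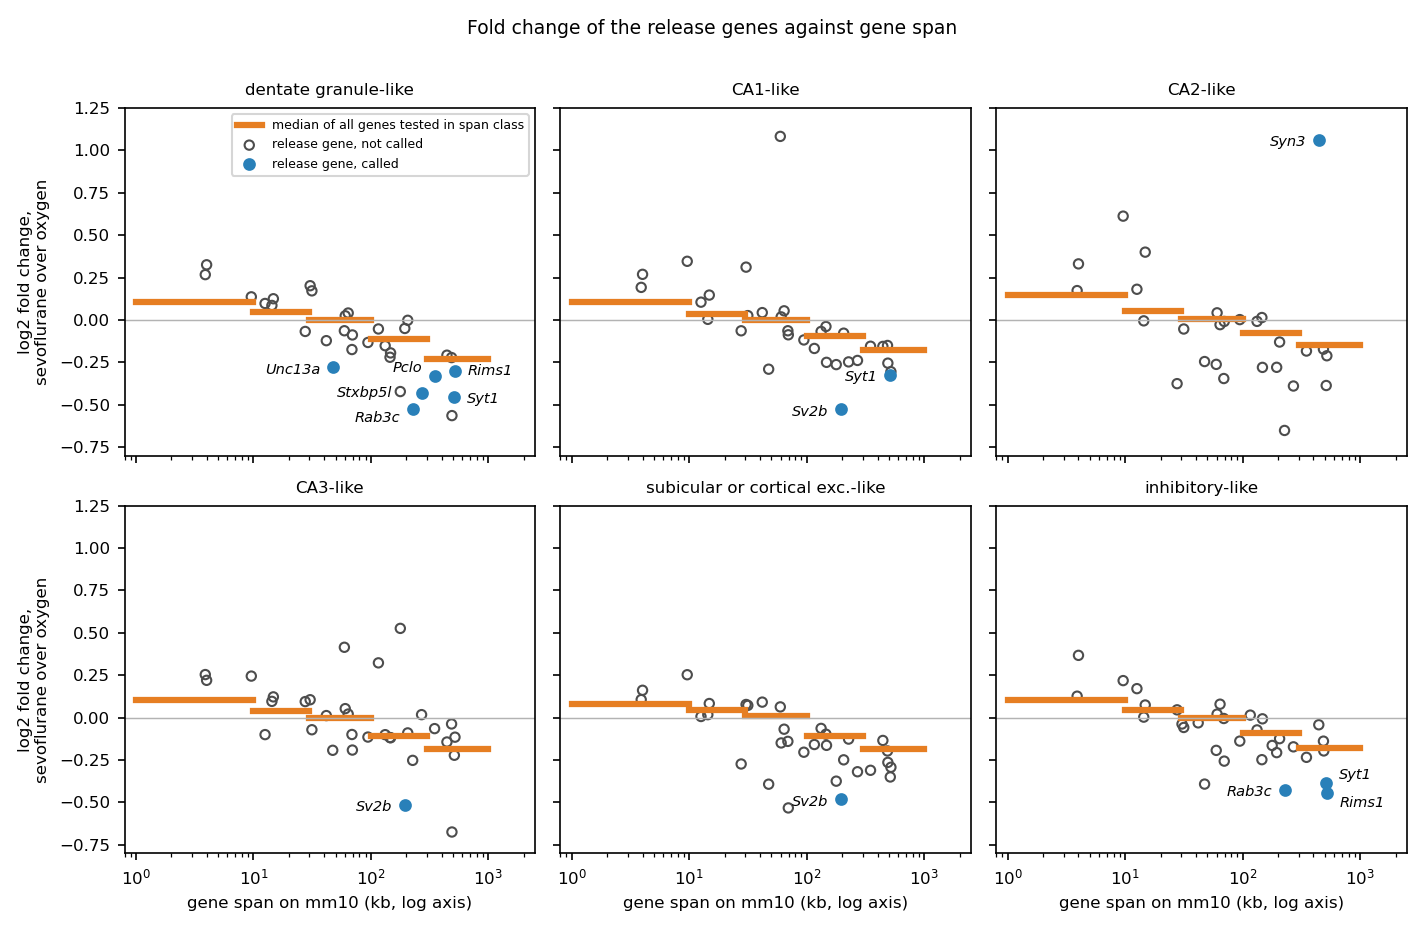
Log2 fold change (sevoflurane over oxygen) of the release genes against gene span in kb on mm10 (log axis) in 6 neuron types; open circles are members not called, filled blue circles called members, and orange bars the median of all genes tested in a span class. The bars step down with span in every panel, and called members lie below their bar except Syn3 in CA2-like neurons.

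Levels of the release genes differed between the neuron types. In the oxygen libraries Syt1 was highest in CA3-like neurons (4261 CPM on plain library totals, here and in the rest of this paragraph) and lowest in dentate granule-like neurons (3164 CPM), in each of the 6 libraries. Stxbp5l was highest in CA2-like neurons, with 3186 CPM against 906 in the next type. Sv2b stood at 602 CPM in CA3-like and 549 CPM in CA2-like neurons, whose order changed between libraries, and at 31.4 CPM in dentate granule-like neurons. Rab3c was highest in inhibitory-like (557 CPM) and lowest in dentate granule-like neurons (92.3 CPM), and Rims1 reached 2203 CPM in CA2-like and 2040 CPM in CA3-like neurons against 1042 CPM in CA1-like ones. Dentate granule-like neurons led in Syt7 (380 CPM), Syn3 (257), Cplx2 (215), Syt10 (43.3), Nsf (732) and Stxbp5 (285) in 6 of 6 libraries. Inhibitory-like neurons led in Pclo (912 CPM), Rims2 (1031), Rph3a (204), Cplx1 (77.9), Syt2 (40.2) and Rims3 (38.5), also in 6 of 6. Unc13a (189 CPM) and Unc13b (222 CPM) were highest in CA2-like neurons and Unc13c (90.4 CPM) in subicular or cortical excitatory-like neurons. Syp, Sv2a, Rab3a, Vamp1, Vamp2 and Syt4 had at least as many CPM in oligodendrocyte-like or microglia-like nuclei as in all 6 neuron types. Per nucleus, Rab3a lay under 2 times the higher glial level in 6 of 6 neuron types, Vamp1, Vamp2 and Syt4 in 5 and Sv2a in 2. Rims3 did so in dentate granule-like, CA1-like, CA2-like and CA3-like neurons, and Syt2 in dentate granule-like, CA1-like and CA2-like ones. Sv2b did so in dentate granule-like and inhibitory-like neurons, Sv2c in CA2-like and CA3-like and Unc13c in CA1-like and CA2-like ones. Rph3a did so in CA1-like and Cplx1 in dentate granule-like neurons. Syp exceeded 2 times the glial level in all 6 types, with 1.22 to 1.70 UMIs per nucleus against at most 0.495 in the glia. Glial nuclei were shallower, as given above, and the part of free RNA was not tested.

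**Figure D5:**
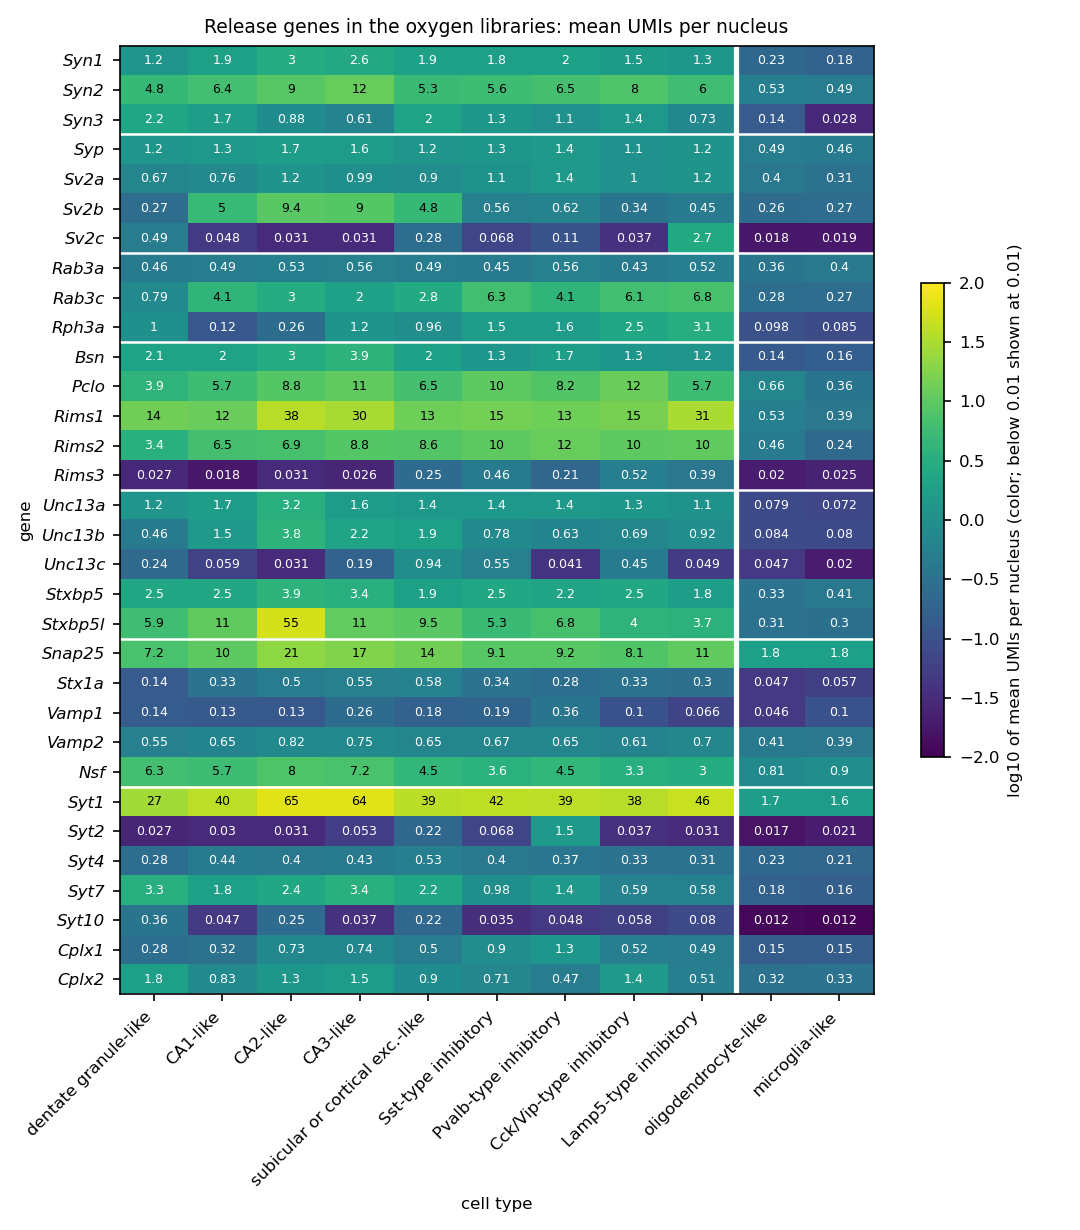
Mean UMIs per nucleus (numbers; colour on a log10 scale) of the 32 release genes in the oxygen libraries, in 5 excitatory types, 4 inhibitory subtypes and, right of the white line, oligodendrocyte-like and microglia-like nuclei as a background. Stxbp5l in CA2-like neurons and Syt1 in CA2-like and CA3-like neurons are the highest values, and Syp, Rab3a and Vamp2 vary little between neuron types.

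Of a wider list of 91 other genes of the release cycle, 90 were found in the files, and edgeR called members of it lower and none higher. In dentate granule-like neurons 6 of 85 tested genes fell, beside 3.16% of all genes, among them Erc1, an active zone organiser (182 ± 4.83 against 249 ± 13.6 CPM, mean ± SD, n = 3 each, log2 fold change -0.45, SE 0.0651, edgeR adjusted p = 0.00484), Apba2, encoding the Munc18-binding protein Mint2 (-0.48, 0.00915), the liprin gene Ppfia2 (-0.44, 0.0198) and Cadps2, which primes dense-core vesicles (-0.40, 0.0228). By role these were 3 of 14 other scaffold genes (median log2 fold change -0.17) and 3 of 26 other docking, priming and fusion genes (0.03), with 0 of 9 other synaptotagmins and complexins, 0 of 12 other vesicle proteins and 0 of 24 endocytosis genes. At an unadjusted p under 0.05, 1, 3 and 4 genes of these last lists passed, and DESeq2 called 0 in each. CA1-like neurons had 3 of 84 lower, beside 1.5% of all genes: Apba2 (-0.49, adjusted p = 0.0177), Rab27b (-0.36, 0.0375) and Rimbp2 (-0.32, 0.0451). Inhibitory-like neurons had 4 of 86 lower, beside 1.22%: Rab27b, a GTPase of vesicle secretion (-0.71, SE 0.0913, adjusted p = 0.0018), Apba1 (-0.41, 0.0253), Mctp2 (-0.50, 0.0354) and Mctp1 (-0.36, 0.0372). The single calls elsewhere were Erc1 in CA2-like neurons (1 of 69, beside 0.25% of all genes, -0.68, 0.0166), Apba2 in CA3-like neurons (1 of 84, beside 1.31%, -0.41, 0.0165) and Stxbp6, encoding amisyn, in subicular or cortical excitatory-like neurons (1 of 88, beside 0.815%, -0.41, 0.0476), and the last 2 counts lay near the share of all genes. The medians of the list lay between -0.07 and 0.02. Of the genes named here, Erc1 and Apba2 in dentate granule-like neurons and Rab27b in inhibitory-like neurons kept their call without any 1 library, and Stxbp6 and Rimbp2 lost theirs without any of the 6 (adjusted p 0.0717 to 0.207 and 0.0533 to 0.204).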

How the data were processed

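Nuclei of frozen hippocampi were profiled with 10x Genomics 3' V3.1 chemistry. The deposited matrices hold UMI counts per gene and barcode, made by the authors with fastp and Cell Ranger 7.1.0 on mm10, per the submitters' processing notes. Whether introns or strand were used in counting is not given in the sources used here. Whether reads of an overlapping antisense gene enter a gene's count is therefore unknown. Kept were nuclei of 500 UMIs or more, 300 genes or more and no more than 5% mitochondrial counts (53287 of 53824), and 1249 doublets were removed with Scrublet at a common score of 0.3173, since its automatic threshold in oxygen replicate 1 called 0. The 52038 remaining nuclei (56334621 to 72636984 UMIs per library before filtering) were clustered in scanpy 1.11.5 without the release genes into 49 clusters, named from marker lists. Counts were summed per library and type and tested with edgeR 4.0.16 (quasi-likelihood, TMM, 3 libraries against 3, R 4.3.3). Differences between types were tested with limma 3.58.1 on log2 CPM with a prior count of 2. P-values were Benjamini-Hochberg adjusted over all genes tested, at a threshold of 0.05. Simulated data were used to check the fits. Alternatives were DESeq2 1.42.0, its size factors, no filter, an offset for gene span, stricter nuclei, doublets kept, a finer clustering, a replicate block and leaving out each library. The members, lists and tests were chosen with earlier results of these data known. Genes given in full were called, had no overlap between groups and averaged at least 10 CPM in 1 group, up to 10 by smallest p in dentate granule-like neurons and 5 in each other type. Members whose change differed between types, and up to 4 called genes of the wider list per type, were named too.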

Additional observations from a re-analysis of the deposited data

Results flagged for a closer look

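Results were marked for a closer look where the change after sevoflurane differed between neuron types by a test of the difference itself. Between dentate granule-like and CA3-like neurons this held for Stxbp5l, with a difference of -0.44 in log2 fold change, for Pclo with -0.26, for Syt1 with -0.23 and for Sv2b with 0.45 (limma, Benjamini-Hochberg adjusted p = 0.00136, 0.0444, 0.0475 and 0.0305). With the span correction Stxbp5l (-0.43, adjusted p = 0.00118) and Sv2b (0.46, 0.0259) passed, and Pclo (0.0631) and Syt1 (0.0589) did not. The dentate level of Sv2b is read as background, as given above, so its difference says nothing of a dentate response. Syt1 lost its call whichever library was left out, and Pclo and Sv2b lost theirs without some libraries, whereas Stxbp5l kept its call. Between dentate granule-like and CA2-like neurons it held for Syn3, with -1.23 (limma, adjusted p = 7.5e-05). Groups of 3 libraries are too small to test a single library as an outlier.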

How the results depend on the processing

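No call reversed its direction under any alternative run. In dentate granule-like neurons the 6 called members became 3 with the span offset, 0 in cluster 3 alone (an alternative chosen after seeing the data; 5 in cluster 1 alone) and 2 to 7 without 1 library, and the 6 called genes of the wider list 1 and 3 to 7. In CA1-like neurons (2 members, 3 of the wider list) DESeq2 gave 6 and 7, no filter 6 and 8, the span offset 1 and 1, stricter nuclei 1 of the wider list, and leaving out 1 library 1 to 5 and 0 to 6. In CA2-like neurons (1 and 1) DESeq2 gave 0 members, no filter 5 and 2, the span offset 0 of the wider list, and leaving out 1 library 0 to 3 and 0 to 1. In CA3-like neurons (1 and 1) no filter gave 3 and 6, DESeq2 and the finer clustering 2 of the wider list each, and leaving out 1 library 1 to 1 and 0 to 2. In subicular or cortical excitatory-like neurons (1 and 1) DESeq2 gave 7 and 6, no filter 7 and 5, its size factors 2 of the wider list, the span offset 0 and 0, the finer clustering 3 and 2, stricter nuclei 0 of the wider list, and leaving out 1 library 0 to 2 and 0 to 1. In inhibitory-like neurons (3 and 4) DESeq2 gave 5 and 8, no filter 5 and 10, the span offset 0 and 1, the Ano1 and Zic4 cluster added (chosen after seeing the data) 9 and 17, and leaving out 1 library 2 to 3 and 1 to 3. Over all neurons (5 and 7) DESeq2 gave 8 members, the span offset 1 and 1, and leaving out 1 library 1 to 5 and 0 to 5. Members differing between dentate granule-like and CA3-like neurons were 2 with the span correction, against 4, and 1 to 3 without 1 library; against subicular or cortical excitatory-like and CA1-like neurons they were 0 to 1 without 1 library, against 0. The causes were not tested.

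The replicate numbers did not pair the libraries (18 correlations of same-numbered libraries, -0.11 to 0.0437). With the number as a replicate block, members and wider list gave 2 and 3 in dentate granule-like, 0 and 1 in inhibitory-like neurons and 2 and 3 over all neurons, and the wider list 1 in CA1-like, 0 in CA2-like and 0 in CA3-like neurons. With block and span offset together they gave 0 and 0 in dentate granule-like, CA3-like and subicular or cortical excitatory-like neurons and over all neurons, 1 and 0 in CA1-like, 0 and 1 in inhibitory-like and 0 of the wider list in CA2-like neurons. The block gave 2 differing members each against CA3-like and subicular or cortical excitatory-like neurons.

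The share of higher calls among all genes called, with the span offset and without it, was 39.0% and 24.5% in CA1-like, 36.4% and 22.2% in CA2-like, 33.0% and 13.9% in CA3-like, 50.5% and 32.3% in subicular or cortical excitatory-like and 36.6% and 22.2% in inhibitory-like neurons. CA2-like sums of 724674 to 962773 UMIs limit what can be seen there.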
